A study of Sus scrofa with 4 samples.

Results

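RBPJL, a transcription factor of the exocrine pancreas, was measured in porcine pancreatic ductal organoids (PPDO) and in primary pig pancreas by single-cell RNA sequencing. It was 1 of 30282 genes with a pig Ensembl identifier, of 30290 genes listed in the count tables. It was described because about as many organoid cells had a molecule counted under its name as had none. Its 2 features, of 56060 in all, were summed and are also shown apart. The base feature (ENSSSCG00000037156) is the gene model, and the extension feature carries the same identifier with an extension of 10 kb in its name. In the organoid libraries the extension feature made up 96.7% and 97.8% of the molecules counted for RBPJL. Whether these are all transcripts of RBPJL was not tested. After filtering, 26172 cells remained. Since RBPJL was chosen for its levels in these samples, all its levels and shares are a description with no test.

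RBPJL is a paralog of RBPJ, the DNA-binding protein through which NOTCH receptors act on their target genes. In acinar cells RBPJL joins PTF1A and an E protein such as TCF3, TCF4 or TCF12 in the PTF1 complex, which binds the promoters of digestive enzyme genes. RBPJL does not respond to NOTCH, and in the adult pancreas it is known as an acinar gene.

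Each group had 2 libraries. PPDO 1 and 2 were organoid lines grown from ducts of a late postnatal and of an adult pig and kept for different numbers of passages in a medium with WNT3a, R-spondin, noggin, EGF and FGF10, and the labels do not say which line is which library. Primary pancreas 1 and 2 came from 2 late postnatal pigs processed on different days. For the first, ducts were picked by hand. The second pooled cells sorted with the lectin DBA, cells sorted for the INS-eGFP transgene, in which the insulin promoter marks beta cells, and unselected cells. The pigs of the study were German landrace, wild type or INS-eGFP, and live cells were sorted in every library. The libraries were thus separate lines or animals, with 2 per group. Culture coincided with group, so that an effect of culture cannot be told apart from any other difference between organoid and tissue.

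The filtered organoid libraries held 300990276 and 262372786 unique molecular identifiers (UMIs, counted molecules) in 8885 and 7337 cells, and the primary libraries 76005904 and 118689838 UMIs in 5676 and 4274 cells. Pairs of libraries shared 10 to 23 cell barcodes, at most 0.285% of the smaller library. Primary cells were clustered without RBPJL and named by marker genes. The acinar-like class had 108 and 56 cells and the ductal-like class 2163 and 1172 cells. The ductal-like cells lay in different clusters in the 2 primary libraries (clusters 0, 7 and 8 in the first, clusters 1 and 24 in the second). The organoid label was only partly met by defining markers. KRT7, a duct keratin, stood at 389 and 384 CPM (UMIs of a gene per 1000000 UMIs) in PPDO 1 and 2 and at 550 and 595 CPM in ductal-like cells. The chloride channel gene CFTR stood at 1.04 and 0.636 CPM in PPDO against 953 and 804 CPM in ductal-like cells, and the duct factor SOX9 at 3.30 and 1.44 CPM against 322 and 354 CPM. The basal keratin KRT5 reached 5420 and 7634 CPM in PPDO and 0.324 and 0.280 CPM in ductal-like cells.

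RBPJL reached 355 CPM in acinar-like cells of primary pancreas 1 (543 UMIs) and 395 CPM in those of primary pancreas 2 (499 UMIs). The mean was 375 ± 28.4 CPM (SD, n = 2). Ductal-like cells stood at 83.6 and 78.7 CPM (3606 and 1969 UMIs), a mean of 81.2 ± 3.42 CPM (SD, n = 2). PPDO stood at 24.7 and 29.99 CPM (7435 and 7869 UMIs), a mean of 27.3 ± 3.74 CPM (SD, n = 2). The library values of the 3 groups did not overlap. Within the ductal-like class, clusters 0 and 8 of primary pancreas 1 had 95.1 and 59.7 CPM and cluster 1 of primary pancreas 2 had 80.3 CPM. Cluster 7 (469 cells of primary pancreas 1) and cluster 24 (64 cells of primary pancreas 2) had 27.6 and 29.9 CPM, in the range of the PPDO values. These clusters were shallow, at 0.522 and 0.479 of the median depth of their libraries, against 2.17, 1.53 and 0.878 in clusters 0, 8 and 1. The acinar-like mean was 13.7 times that of PPDO, and the ratio of single libraries ran from 11.8 to 16.0. The ductal-like mean was 2.97 times that of PPDO, with single-library ratios of 2.63 to 3.38.

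Both ratios moved with the scaling. Genes of the acinar marker list took 201712 and 208810 CPM of the acinar-like cells' molecules, which lowers the CPM of every other gene there. With TMM factors, which rescale each library by a trimmed mean of gene ratios, the acinar-like mean was 42.1 times the PPDO mean and the ductal-like mean 2.18 times. With the acinar and endocrine marker genes taken out of the totals the ratios were 17.4 and 2.98. PPDO was the lower group of each pair in every one of these scalings. The acinar-like level also moved with the class. At a clustering resolution of 1.0 the acinar-like cells of primary pancreas 2 numbered 174 and had 989 CPM, and with doublets kept those of primary pancreas 1 numbered 258 and had 852 CPM, which gave means of 672 and 594 CPM. With doublets kept, 168 of those cells lay in a cluster led by SPHKAP, ADAD1 and GATA4 that took the acinar name. These genes are also among the leading genes of cluster 22, which was unnamed at the main setting (below).

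Among the other primary classes, stellate-like cells had 37.4 CPM in primary pancreas 1 and 73.7 CPM in the 48 such cells of primary pancreas 2, where 24 of the 32 UMIs lay in 1 cell and the level without it was 19.1 CPM. Schwann-like cells, found nearly all in primary pancreas 1, had 41.8 CPM there. Immune-like cells had 26.7 and 18.7 CPM, and without the cell richest in RBPJL in each library 18.5 and 12.2 CPM. Endothelial-like cells had 3.90 and 6.14 CPM and endocrine-like cells 1.77 and 2.95 CPM. These classes were the lowest, and the PPDO mean was 5.45 times the endothelial-like and 11.6 times the endocrine-like mean. With 47 and 18 UMIs in endothelial-like cells and 3 and 252 UMIs in endocrine-like cells, the exact Poisson intervals of the 2 classes overlapped in primary pancreas 1 (2.87 to 5.19 CPM and 0.366 to 5.18 CPM). In tissue libraries such a level can join the class's own transcripts with free RNA from other cells, and the part of each was not tested.

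A pair of primary clusters that took no class name had a higher RBPJL level than the acinar-like class, a pattern seen after the data were examined. Cluster 22, with 149 cells of primary pancreas 1, was led by GATA4, MYO18B and ESR2 and had 1622 CPM of RBPJL (1605 UMIs). Cluster 10, with 363 cells of primary pancreas 2, was led by SPHKAP, EXTL1 and ADAD1 and had 1150 CPM (2002 UMIs). Their cells were shallow, at 0.598 and 0.171 of the median depth of their libraries. Genes of the acinar marker list made up 8407 and 8349 CPM in the clusters, under the acinar-like level and above the 809 and 529.8 CPM of ductal-like cells. PTF1A stood at 27.3 and 23.0 CPM in them, against 42.5 and 25.3 CPM in acinar-like cells, GATA4, an acinar factor, at 332 and 155 CPM against 62.8 and 53.9 CPM, and GP2, a membrane protein of the enzyme granules, at 2791 and 2802 CPM against 8883 and 10868 CPM. Each cluster came from a single library, so that cluster and library cannot be told apart. With both clusters joined to the acinar-like class, the class had 853 and 833 CPM of RBPJL, 30.8 times the PPDO mean. In a further unnamed cluster, 19, led by TCN1, TM4SF20 and S100A2, RBPJL stood at 225 CPM in 149 cells of primary pancreas 1, where it was 99.4% extension feature, and at 59.5 CPM in 17 cells of primary pancreas 2. The first value rests on 178 UMIs, up to 27 in 1 cell. Cluster 19 met 8 markers of a list but stayed unnamed, being shallow (0.135 of the median depth) with no such marker among its leading genes. With doublets kept, a cluster led by TCN1, TM4SF20 and ONECUT2 (356 and 22 cells) was named ductal-like.

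The base and extension features were divided unlike between tissues. The base feature carried 271 and 286 CPM in acinar-like cells, 4.40 and 2.16 CPM in ductal-like cells and 0.827 and 0.652 CPM in PPDO. In UMIs these were 415 and 361 in the 164 acinar-like cells, 190 and 54 in ductal-like cells, and 249 and 171 in the organoids. The acinar-like mean of the base feature (279 ± 10.3 CPM, SD, n = 2) was 377 times that of PPDO (0.740 ± 0.124 CPM, SD, n = 2) and 84.9 times that of ductal-like cells (3.28 ± 1.59 CPM, SD, n = 2). The PPDO values lay in the range of the lowest tissue classes. Endocrine-like cells had 0.591 and 0.726 CPM of the base feature, endothelial-like cells 1.91 and 1.02 CPM, and immune-like cells 9.19 and 3.35 CPM. In primary pancreas 1 a single immune-like cell held 45 of the 54 base UMIs, and without the cell richest in base UMIs in each library the values were 1.54 and 2.03 CPM.

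The extension feature differed less between acinar-like and ductal-like cells. It carried 83.7 and 109 CPM in acinar-like cells, 79.2 and 76.6 CPM in ductal-like cells and 23.9 and 29.3 CPM in PPDO. The acinar-like mean was 3.63 times that of PPDO and 1.24 times that of ductal-like cells, and the exact Poisson interval of the first acinar-like library, 69.8 to 99.5 CPM, held both ductal-like values, while that of the second, 91.8 to 129 CPM, lay above both. These are CPM of all molecules, which enzyme genes lower in acinar-like cells, and the extension feature alone was not rescaled. With the marker genes out of the totals, all RBPJL moved from 355 and 395 to 445 and 508 CPM in acinar-like cells. In ductal-like cells it moved from 83.6 and 78.7 to 83.7 and 79.4 CPM. With clusters 10 and 22 joined to the acinar-like class its extension feature stood at 167 and 289 CPM. Stellate-like, Schwann-like and immune-like cells of primary pancreas 1 had 32.7, 37.8 and 17.5 CPM of it, while endocrine-like cells had 1.18 and 2.22 CPM. The exact Poisson intervals of ductal-like cells (76.5 to 81.9 and 73.2 to 80.1 CPM) lay far above those of endocrine-like cells (0.143 to 4.27 and 1.92 to 2.56 CPM).

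**Figure D1:**
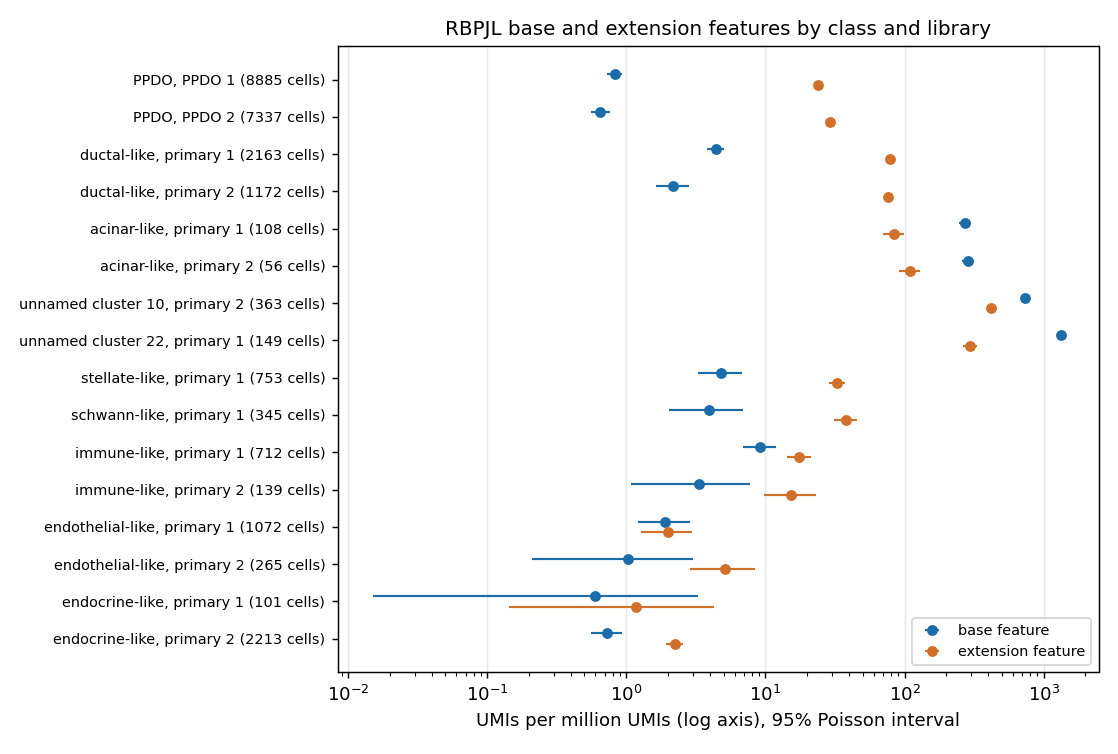
RBPJL molecules per 1000000 UMIs on a log axis, for the base feature (blue) and the extension feature (orange), in PPDO, primary classes and unnamed clusters 10 and 22 where a library had at least 50 cells, 1 row per class and library, with exact Poisson intervals at 95%. The base feature stands near 271 to 286 CPM in acinar-like cells and under 1 CPM in both PPDO libraries, while the extension feature lies between 23.9 and 109 CPM in PPDO, ductal-like and acinar-like cells.

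As a share of RBPJL molecules, the extension feature made up 96.7% and 97.8% in PPDO, 94.7% and 97.3% in ductal-like cells and 23.6% and 27.7% in acinar-like cells. In the unnamed clusters it was 18.3% (cluster 22) and 36.5% (cluster 10). A share this large was uncommon but not singular. Among genes with both kinds of feature and at least 100 UMIs, the median extension share in PPDO was 5.46% over 15080 genes and 4.24% over 14486 genes, and RBPJL stood at percentiles 94.3 and 95.5. It stood no lower where its share was smaller, at percentiles 97.0 and 96.5 of 428 and 344 genes in acinar-like cells, and at 97.6 and 98.3 in ductal-like cells. Of the genes in PPDO 8.64% and 8.02% had an extension share of 90% or more. The rise from acinar-like cells to PPDO was 71.6 percentage points for RBPJL. Over the 287 genes with 100 UMIs in every one of these sums the median rise was 0.119 points, and 6 of them rose by more than RBPJL.

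RBPJL lies on chromosome 17 at 47631432 to 47642169 in RefSeq's Sscrofa11.1 annotation. The nearest named gene at lower coordinates is MATN4, a matrix protein gene, 236 bp away, followed by SLPI, a secreted protease inhibitor, and SPAI-2. At higher coordinates SDC4, a cell surface proteoglycan gene, begins 8217 bp away, a distance shorter than the 10 kb in the extension's name, followed by SYS1 and DBNDD2. The strand of these genes was not given in the table used here, so the side on which the extension lies is not stated. No feature was matched to SDC4. An identifier without a symbol, ENSSSCG00000038594, stands between RBPJL and SYS1 in the feature table and was looked at after its values had been seen.

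The identifier had 95.003 and 97.2 CPM in PPDO, 394 and 175 CPM in ductal-like cells and 30.1 and 29.3 CPM in acinar-like cells. Like the extension feature it was lower in PPDO than in ductal-like cells, but it differed between the ductal-like libraries, where the extension feature had 79.2 and 76.6 CPM, and was lowest of the 3 in acinar-like cells. Over 14 sums of a class within a library, its log2(CPM + 1) had a Pearson correlation of 0.80 with the extension feature (rank 25 of 16166 genes) and of 0.15 with the base feature (rank 851). Over 29 sums of a primary cluster within a library the values were 0.77 (rank 27 of 17959) and 0.25 (rank 1421). The points share libraries, depth and free RNA, and these values are descriptions. Whether reads of a neighbouring transcript were counted in the extension feature was not tested.

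Of the named neighbours 4 were tested, and 1 rose and 0 fell against ductal-like cells, beside the 22.8% and 20.9% of all genes that rose and fell. Against acinar-like cells 2 rose and 1 fell, beside 13.9% and 10.4% of all genes. MATN4 had 1.43 and 1.87 CPM in PPDO, 1.21 and 0.520 CPM in ductal-like cells and 26.2 and 44.4 CPM in acinar-like cells. It was lower in PPDO than in acinar-like cells by a log2 fold change of −6.02 ± 0.35 (SE, edgeR quasi-likelihood test, FDR = 0.000531) and did not pass against ductal-like cells (1.31 ± 0.55, FDR = 0.117). SLPI had 148 and 285 CPM in PPDO and 3.55 and 2.24 CPM in ductal-like cells, and rose by 6.64 ± 0.57 on the log2 scale (FDR = 0.00184). Against acinar-like cells SLPI also rose (7.62, FDR = 0.00370), as did DBNDD2 (2.66, FDR = 0.0467), whose call was lost with RLE factors (FDR = 0.0608) and without PPDO replicate 1 or 2 (FDR = 0.0928 and 0.0669). SYS1 and DBNDD2 did not pass against ductal-like cells (−0.86 and 0.05, FDR = 0.181 and 0.874). SYS1 passed as lower without primary pancreas replicate 2 (−1.37, FDR = 0.00859) and with no factors (−1.26, FDR = 0.0452), where 1 neighbour rose and 1 fell, and MATN4 as higher without primary pancreas replicate 1 (2.20, FDR = 0.0237), where 2 rose and 0 fell.

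Counted cell by cell, 49.6% and 56.3% of organoid cells had at least 1 RBPJL UMI. Of the cells in PPDO 1, 4475 had none, 2585 had 1, 1115 had 2 and 710 had 3 or more. In PPDO 2 these numbers were 3203, 2117, 1094 and 923, and no organoid cell had more than 12. Base feature molecules were present in only 2.28% and 1.95% of organoid cells. Without thinning, 72.2% and 80.4% of acinar-like cells and 63.6% and 74.5% of ductal-like cells had a UMI. These shares rest on unequal depth, since the median cell had 34176 and 34459 UMIs in PPDO, 10314 and 16292 UMIs among acinar-like cells and 17830 and 20545 UMIs among ductal-like cells.

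When each cell was thinned to 3000 UMIs, 7.63% and 9.02% of organoid cells had an RBPJL UMI (exact binomial intervals at 95%, 7.08 to 8.20 and 8.38 to 9.70). Of acinar-like cells 45.4% and 46.4% had one (35.8 to 55.2 and 33.0 to 60.3). Of ductal-like cells 20.6% and 19.5% had one (18.9 to 22.4 and 17.2 to 21.8). The library values of the 3 groups did not overlap at equal depth, and the acinar-like mean was 5.51 times that of PPDO. Within the ductal-like class, cluster 7 had an RBPJL UMI in 4.75% of 358 thinned cells (2.79 to 7.49), below both PPDO shares. Thinning left out 61 and 10 organoid cells, none of the acinar-like cells, and 113 and 0 ductal-like cells.

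The shares in other tissue classes can hold both free RNA and transcripts of their own, and the part of each was not tested. In thinned endothelial-like cells 0.584% and 1.89% had an RBPJL UMI and in endocrine-like cells 4.11% and 1.27%, the 4.11% being 3 of 73 cells. These cells had median depths of 9209 and 9808 UMIs (endothelial-like) and 12878 and 39411 UMIs (endocrine-like) before thinning. The PPDO shares lay above these values, though the interval of the 73 cells, 0.856 to 11.5, held both. In immune-like cells the shares were 4.11% and 4.32%. Stellate-like cells had 9.03% in primary pancreas 1, level with the higher PPDO share, and 6.25% (3 of 48 cells) in primary pancreas 2, below both. Schwann-like cells had 14.1%, above both. For the base feature the order differed. It was found in 36.1% and 33.9% of thinned acinar-like cells, in 1.07% and 0.427% of ductal-like cells and in 0.204% and 0.164% of organoid cells, against 0.486% and 0.377% of endothelial-like cells in the tissue libraries, whose free RNA is not that of the organoid libraries.

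**Figure D2:**
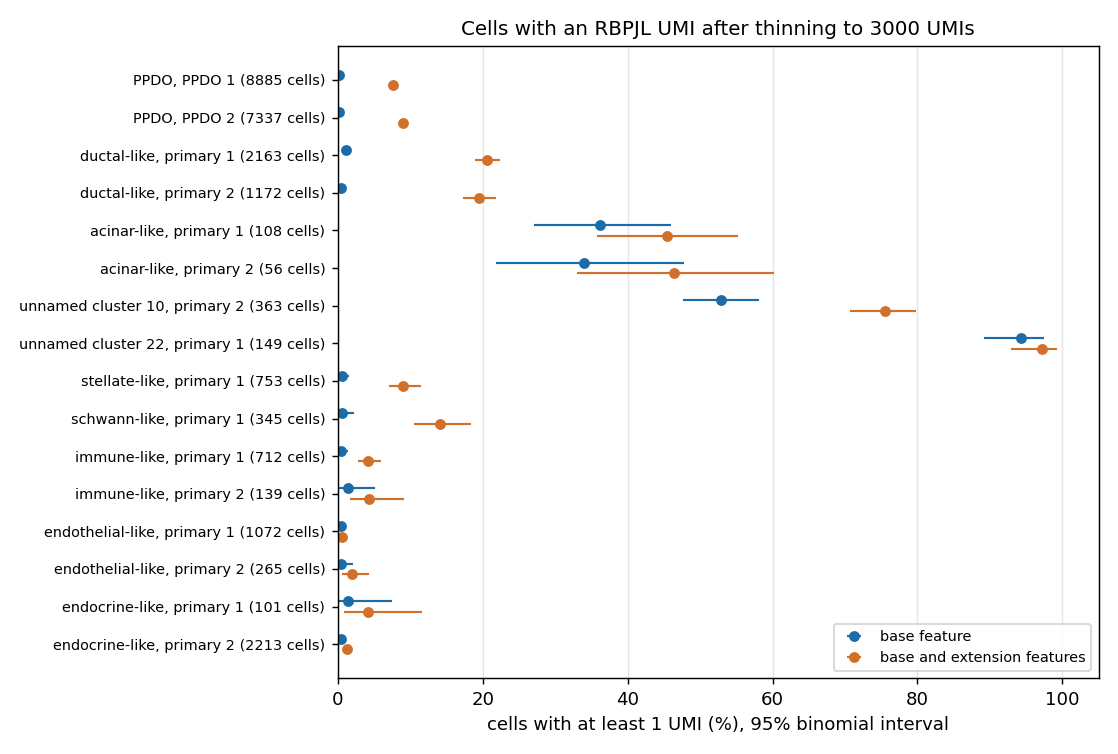
Share of cells with at least 1 RBPJL UMI after each cell was thinned to 3000 UMIs, for the base feature (blue) and for both features (orange), with exact binomial intervals at 95% and 1 row per class and library (row names give the cells before thinning). Both features are found in 7.63% and 9.02% of PPDO cells and in 45.4% and 46.4% of acinar-like cells, and the base feature in 0.204% and 0.164% of PPDO cells.

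RBPJL molecules were counted in all organoid clusters. Free RNA was not taken out of these counts and its part was not tested. The 9 clusters were called by number and leading genes, and the extension feature ranged from 12.4 to 38.3 CPM across them in PPDO 1 and from 16.4 to 52.5 CPM in PPDO 2. It was highest in cluster 8, led by SPP1, KRT4 and CFD, at 38.3 CPM (34.5 to 42.5) and 52.5 CPM (46.6 to 59.0). Cluster 4, led by the hypoxia genes ADM and EGLN1 with TIMP3, had 38.0 and 46.4 CPM, and cluster 1, led by IGFBP6, NDUFA4L2 and CCN4, had 37.9 and 43.9 CPM. These 3 clusters stood above the other 6 in both libraries.

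The lowest was cluster 5, led by the mitosis genes CENPF, TOP2A and TPX2, at 12.4 CPM (10.8 to 14.2) and 16.4 CPM (14.7 to 18.2). Cluster 7, led by DTL, ZNF367 and UHRF1, had 14.8 and 22.4 CPM. Clusters 0, 2, 3 and 6 lay between 19.1 and 24.4 CPM in PPDO 1 and between 22.9 and 25.0 CPM in PPDO 2. The order ran beside depth. In PPDO 2 the 3 highest clusters were also the 3 shallowest, with median depths of 23171 UMIs (cluster 4), 29299 UMIs (cluster 1) and 29589 UMIs (cluster 8) against 34503.5 to 43716.5 UMIs in the others. In PPDO 1 clusters 4 and 1 were the shallowest (18766 and 28669 UMIs), while cluster 8 had 36359 UMIs and the others 31871.5 to 44182 UMIs. The part of depth in the order was not tested. The share of thinned cells with an RBPJL UMI gave the same 3 clusters at the top, with 10.7%, 10.2% and 10.7% of cells in PPDO 1 and 14.7%, 14.1% and 12.5% in PPDO 2 for clusters 8, 4 and 1. That share follows closely from the CPM of a cluster, so it is no test of depth.

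The base feature did not follow the extension feature among organoid clusters. It was found with 2 and 0 UMIs in cluster 4, 4 and 1 UMIs in cluster 8 and 16 and 18 UMIs in cluster 1. Its highest level was 1.45 and 1.68 CPM in cluster 3, led by CXCL14, HMCN1 and KLHL29 (55 and 40 UMIs), with exact Poisson intervals of 1.09 to 1.88 and 1.203 to 2.29 CPM, against 0.0101 to 0.300 CPM in cluster 4 of PPDO 1. The identifier ENSSSCG00000038594 was highest in cluster 8 (155 and 192 CPM) and lowest in cluster 5 in PPDO 1 and 2 (58.7 and 66.6 CPM), as the extension feature was, with a Pearson correlation of 0.82 with all RBPJL over the 18 cluster sums (rank 63 of 12106 genes).

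**Figure D3:**
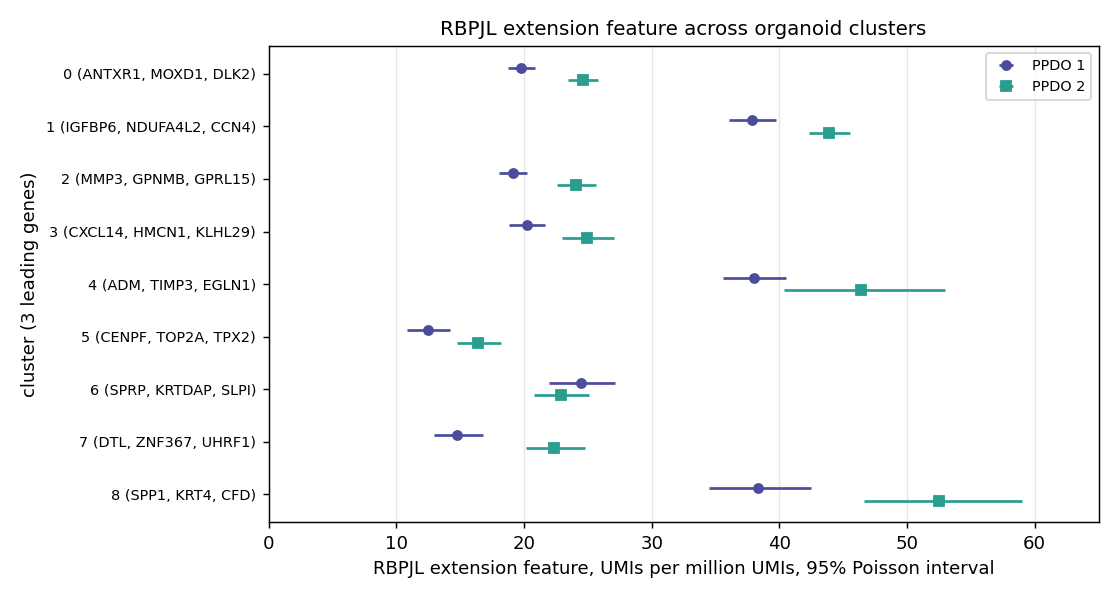
RBPJL extension feature in molecules per 1000000 UMIs for each organoid cluster, named by its 3 leading genes, in PPDO 1 (circles) and PPDO 2 (squares), with exact Poisson intervals at 95%. Clusters 8, 4 and 1 stand highest in both libraries (37.9 to 52.5 CPM) and cluster 5 lowest (12.4 and 16.4 CPM).

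The genes whose level ran most like that of RBPJL were taken by Pearson correlation of log2(CPM + 1). Over the 14 class sums these were BCAT2, an enzyme of branched-chain amino acid breakdown (0.92), SLC31A2 (0.92), RAB27B, a GTPase of granule release (0.90), ATF5 (0.88), TMEM97 (0.88) and STOX1 (0.88), of 16166 genes. For the base feature alone they were ADAD1 (0.99), PNLIPRP2, a pancreatic lipase relative (0.99), GLS2 (0.99), SERPINI2 (0.99), SPHKAP (0.98) and the protease gene CTRC (0.98). CTRC is on the marker list that named the acinar-like class. The acinar-like sums of the base feature stood far above the others, so genes high in acinar-like cells rank high here. Over the 29 primary cluster sums the genes most like the base feature were SPHKAP (0.98), ADAD1 (0.97), SLC43A1 (0.97), AFM (0.94), GDA (0.94) and CBS (0.94), and SPHKAP and ADAD1 were also among the leading genes of clusters 10 and 22. For the extension feature the genes most like it over the 14 class sums were RAB27B (0.92), BCAT2 (0.92), TYRO3 (0.89), BCAT1 (0.88), CRAT (0.88) and ALDH2 (0.86), and over the 29 primary cluster sums CACNA2D3 (0.85), BCAT2 (0.85), PHGDH (0.84), GJB1 (0.83), ACSS3 (0.82) and MACROD1 (0.82). Over the 18 organoid cluster sums the genes most like RBPJL were HSD3B7 (0.95), SAMD4A (0.93), PLCD3 (0.91), RHBDD2 (0.90), KCNMA1 (0.90) and GM2A (0.90), none of which was on the list from the class sums.

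The partners of RBPJL were read from fits across all genes. Against ductal-like cells 43.7% of 23514 genes passed (22.8% higher and 20.9% lower in PPDO), and against acinar-like cells 24.2% of 20991 genes passed (13.9% higher and 10.4% lower). Both comparisons share the PPDO libraries. Of the 5 genes of the PTF1 complex and its partners, 1 rose and 2 fell against ductal-like cells with a median log2 fold change of −0.27 (0.01 over all genes), and 0 rose and 2 fell against acinar-like cells with a median of 0.37 (0.92 over all genes). PTF1A is 1 of those that fell in each comparison, and with no UMI in PPDO it could only be called as lower. The counts moved with the setting. On library totals with no factors 0 rose and 3 fell against ductal-like cells and 3 rose and 1 fell against acinar-like cells (median 2.00), and without primary pancreas replicate 1 the latter were 2 and 1.

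PTF1A, the bHLH factor that recruits RBPJL, had 0 UMIs in both PPDO libraries. That count allows up to 0.00997 and 0.0114 CPM (3 counts per library). It had 65 and 32 UMIs in acinar-like cells (42.5 and 25.3 CPM) and 12 and 6 UMIs in ductal-like cells (0.278 and 0.240 CPM). The other named classes of primary pancreas 1 had 0 to 0.591 CPM of PTF1A (at most 2 UMIs each), so that the ductal-like level there lay within their range, and those of primary pancreas 2 had 0 to 0.0702 CPM. Against that limit PTF1A was at least 2216-fold lower in PPDO than in acinar-like cells and at least 21.0-fold lower than in ductal-like cells. PTF1A entered the fits only through the primary cells and could only be called as lower, so no FDR is given. With 0 PTF1A UMIs in PPDO, no organoid cell had both RBPJL and PTF1A detected.

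The E proteins of the complex were present in PPDO. TCF12 had 287 and 297 CPM in PPDO, 476 and 489 CPM in ductal-like cells and 87.6 and 57.8 CPM in acinar-like cells. TCF3 had 17.8 and 13.2 CPM, 23.3 and 27.1 CPM, and 5.23 and 1.58 CPM in the same order. Neither passed against ductal-like cells (FDR = 0.188 and 0.322) or acinar-like cells (FDR = 0.336 and 0.558). With no factors TCF12 passed against ductal-like cells as lower in PPDO (−0.72, FDR = 0.0131). Against acinar-like cells both passed on library totals with no factors (2.00 and 2.12, FDR = 0.000897 and 0.0117), and TCF12 without primary pancreas replicate 1 (0.76, FDR = 0.0307). TCF4 fell, with 25.2 and 12.7 CPM in PPDO and 104 and 109 CPM in ductal-like cells (−2.05 ± 0.34, FDR = 0.00980). Against acinar-like cells (51.0 and 14.3 CPM) its difference (−2.45 ± 0.63, FDR = 0.0425) was lost without primary pancreas replicate 1 (FDR = 0.345) and on library totals with no factors (FDR = 0.295). RBPJ, the NOTCH-responsive paralog, had 114 and 116 CPM in PPDO and 108 and 124 CPM in ductal-like cells. Its log2 fold change of 0.44 ± 0.12 (FDR = 0.0439) was −0.01 on library totals with no factors, and it was lost with the replicate number as a block (FDR = 0.103) and without PPDO replicate 1 or 2 or primary pancreas replicate 2 (FDR = 0.186, 0.275 and 0.0551). It passed in 6 of 11 alternatives. Against acinar-like cells (33.4 and 16.6 CPM) it gave 0.55 ± 0.32 (FDR = 0.282), and passed with no factors (2.18, FDR = 0.00173) and without primary pancreas replicate 1 (1.21, FDR = 0.0171).

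Transcription factors of acinar cells were low in the organoids. Of 8 such genes 7 fell against ductal-like cells (median log2 fold change −2.65) and all 8 fell against acinar-like cells (median −5.50), beside the 20.9% and 10.4% of all genes that fell. Without 1 library, with 7 or 8 of them tested, 5 or 6 fell against ductal-like cells and 6 to 8 against acinar-like cells. PTF1A, above, is 1 of the 8, and with PTF1A at its bound in place of its fitted value it still lay below both medians. With no UMI in PPDO, PTF1A could only be called as lower. BHLHA15, which drives the secretory build of acinar cells, had 0.223 and 0.172 CPM in PPDO, 0.603 and 0.680 CPM in ductal-like cells and 32.7 and 38.0 CPM in acinar-like cells. It fell by 9.10 on the log2 scale against acinar-like cells (SE 0.28, FDR = 8.24e-05). Its smaller difference from ductal-like cells (−1.25 ± 0.35, FDR = 0.0431) held in 4 of 11 alternatives, with FDR from 0.0224 to 0.276.

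NR5A2, a nuclear receptor that works with PTF1 on enzyme genes, had 11.6 and 2.79 CPM in PPDO, 653 and 678 CPM in ductal-like cells and 79.1 and 64.9 CPM in acinar-like cells, and fell against both (−6.11 ± 0.79, FDR = 0.00508, and −4.97 ± 0.74, FDR = 0.00847). GATA4 had 0.834 and 0.438 CPM in PPDO and 62.8 and 53.9 CPM in acinar-like cells (−8.15 ± 0.41, FDR = 0.000361). XBP1, a factor of the unfolded protein response, had 47.8 and 45.8 CPM against 84.4 and 127 CPM in acinar-like cells (−2.79 ± 0.23, FDR = 0.00131). The size of this fall moved with the setting, from −3.21 to −1.17 over 12 alternatives. ZBTB20 fell by 2.54 against ductal-like cells (FDR = 0.000813), while against acinar-like cells it turned from −1.33 (FDR = 0.0121) to 0.29 on library totals with no factors (FDR = 0.281). Its call against acinar-like cells was also lost with doublets kept (−1.44, FDR = 0.0848).

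Acinar secretory genes that had not been used to name the classes were low as well. They were not left out of the clustering, and SYCN and CELA2A were among the leading genes of the acinar-like cluster. The fall of these genes against acinar-like cells is thus a description and no independent support. Of 17 on the list 13 were measured and 12 tested, and 10 fell against ductal-like cells (median −3.48) and 11 against acinar-like cells (median −13.42), beside the 20.9% and 10.4% of all genes that fell. Without PPDO replicate 1 or 2, 8 and 7 fell against ductal-like cells. GP2 had 0.0365 and 0.0305 CPM in PPDO and 18.4 and 12.8 CPM in ductal-like cells (−8.40 on the log2 scale). The lipase relative PNLIPRP1 had 0 and 1 UMI in PPDO against 8383 and 4656 CPM in acinar-like cells. Both genes entered the fits only through the primary cells and could only be called as lower, so no FDR is given. Both are among the genes counted as fallen. SYCN, which sits on the inner face of enzyme granules, had 1.86 and 1.46 CPM against 9688 and 10869 CPM. Against ductal-like cells DNASE1 and TRHDE did not pass. DNASE1 had 38.5 and 35.0 CPM in PPDO and 31.6 and 47.6 CPM in ductal-like cells (0.36 ± 0.17, FDR = 0.152), and passed as higher without primary pancreas replicate 2 (0.53, FDR = 0.0435). It fell against acinar-like cells (2865 and 3507 CPM, −8.06 ± 0.24, FDR = 8.24e-05). TRHDE had 0.166 and 0.156 CPM in PPDO and 0.209 and 1.1996 CPM in ductal-like cells (−1.54 ± 0.77, FDR = 0.167), and passed as lower without primary pancreas replicate 1 (−2.36, FDR = 0.0143). With 0 UMIs in both acinar-like libraries TRHDE did not pass there, but with clusters 10 and 22 joined to that class it passed as lower (−3.74, FDR = 0.00769). The enzyme gene CPA1 was also counted in other tissue classes. It stood at 14.7 to 88.6 CPM in endocrine-like, endothelial-like, stellate-like, Schwann-like and immune-like cells of the libraries with at least 50 such cells. In PPDO it stood at 0.907 and 0.720 CPM. Ductal-like cells had 67.8 and 36.6 CPM of CPA1, in the range of those classes. Whether these counts were free RNA, doublets or the cells' own transcripts was not tested, nor was their part in the differences from ductal-like cells.

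**Figure D4:**
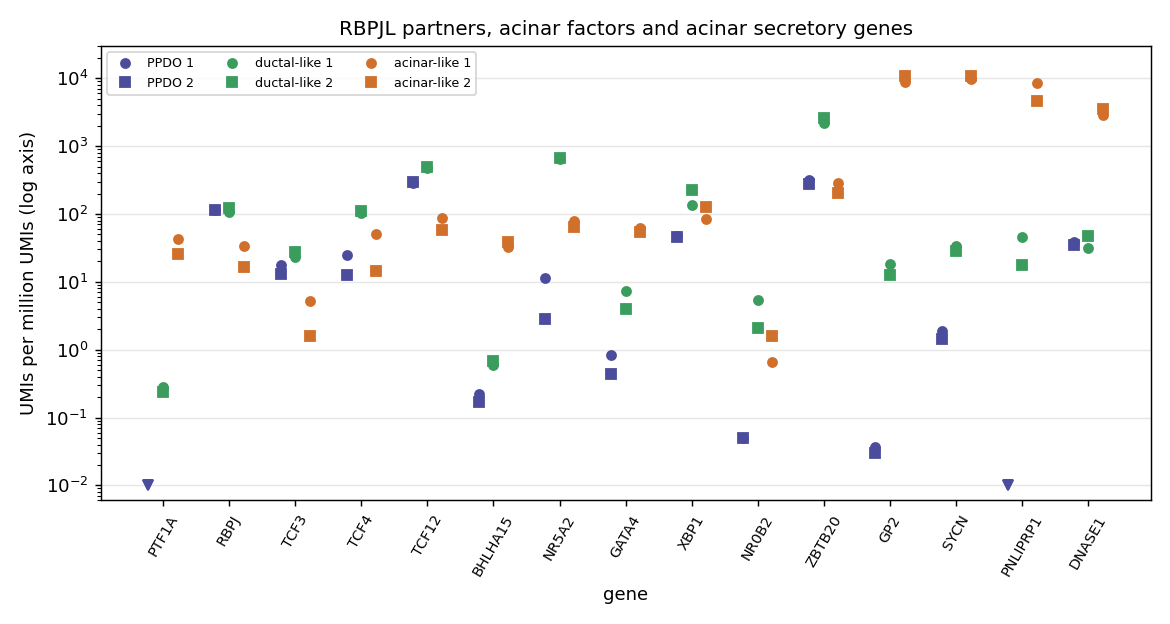
Level of RBPJL partners, acinar factors and acinar secretory genes in molecules per 1000000 UMIs on a log axis, in PPDO, ductal-like and acinar-like cells, with a circle for the first and a square for the second library of each group and triangles at the lower edge for levels under 0.01 CPM. PTF1A, BHLHA15, GP2, SYCN and PNLIPRP1 are far lower in PPDO than in acinar-like cells, whereas RBPJ and TCF12 are present in all groups.

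NOTCH target genes, which are read through RBPJ and not through RBPJL, were divided. Of 8, 2 rose and 4 fell against ductal-like cells (median −1.04), beside 22.8% and 20.9% of all genes. The counts that rose and fell were 3 and 2 without primary pancreas replicate 1 (median −0.33), 2 and 2 without PPDO replicate 2, 1 and 3 without PPDO replicate 1, and 3 and 3 with the replicate number as a block. Against acinar-like cells 1 rose and 1 fell (median 1.81), beside 13.9% and 10.4%. The median of 1.81 takes in DTX1 and HEY2 (7.08 ± 13.26 and 7.26 ± 10.24, SE), whose errors exceeded their values, so it leans on genes hardly measured there. The counts that rose and fell were 4 and 1 with no factors, and 3 and 1 with the replicate number as a block or with doublets kept. With clusters 10 and 22 joined to the class they were 3 and 3 (median −0.58), and DTX1 and HEY2 turned to −4.49 and −3.32. NOTCH3, a receptor gene and itself a target, rose with 74.8 and 79.3 CPM in PPDO against 18.4 and 22.1 CPM in ductal-like cells (2.39 ± 0.14, FDR = 0.000842). NRARP, a feedback inhibitor of the pathway, had 19.5 and 12.1 CPM against 6.14 and 3.60 CPM (2.10 ± 0.43, FDR = 0.0182), a call that was lost without PPDO replicate 1 (1.76, FDR = 0.0779). DTX1 fell, with 0.1495 and 0.0877 CPM against 30.3 and 38.0 CPM (−7.70 ± 0.34, FDR = 0.000487). HES1 had 101 and 91.1 CPM in PPDO, 320 and 83.8 CPM in ductal-like cells and 20.3 and 2.38 CPM in acinar-like cells and passed neither test (FDR = 0.456 and 0.180). Its direction against ductal-like cells rested on 1 library, at 0.72 without primary pancreas replicate 1 (FDR = 0.0158) and −1.42 without primary pancreas replicate 2 (FDR = 0.00364). Against acinar-like cells HES1 passed as higher in PPDO in 5 of 12 alternatives, with 1.59 under the block (FDR = 0.00013) and 3.75 without primary pancreas replicate 1 (FDR = 0.00587). HEYL fell against acinar-like cells (1.68 and 0.591 CPM against 22.2 and 26.1 CPM, −6.04 ± 0.62, FDR = 0.00261).

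Factors shared by the pancreatic epithelium were mostly lower in PPDO. Of 11, 9 fell against ductal-like cells (median −2.29) and 6 of the 10 tested fell against acinar-like cells (median −2.23), where on library totals with no factors 1 rose and 3 fell (median −0.61), beside the 20.9% and 10.4% of all genes that fell against each class. ONECUT1 had 0.209 and 0.221 CPM in PPDO and 523 and 770 CPM in ductal-like cells (−11.08 ± 0.25, FDR = 0.000315), and FOXA2 0.186 and 0.133 CPM against 61.1 and 65.7 CPM (−8.18 ± 0.25, FDR = 0.000315). HNF4A and GATA6 also fell against both classes, though GATA6 lost its call against acinar-like cells on library totals with no factors (−0.32, FDR = 0.177). Of 7 epithelial check genes, KRT5 and the basal factor TP63 rose against ductal-like cells (14.81 ± 0.44 and 11.27 ± 0.22, FDR = 0.000315 for both) and 3 fell, with a median of −0.12, beside 22.8% and 20.9% of all genes. The 3 were EPCAM, KRT18 and CDH1, and 2 fell under the block and without any 1 library. KRT18 lost its call without primary pancreas replicate 1 or 2 (FDR = 0.0805 and 0.0505), and CDH1 (FDR = 0.0485) under the block and without PPDO replicate 1 or 2 (FDR = 0.0540, 0.148 and 0.163). Against acinar-like cells 4 rose and 0 fell (median 1.81), beside 13.9% and 10.4%. KRT5, 1 of the 4 (22.82 ± 0.96), passed the filter against acinar-like cells only through PPDO and could only be called as higher. There 2 fell without PPDO replicate 1 (EPCAM −1.31 and KRT18 −2.15, FDR = 0.0171 and 6.58e-05), 1 fell with the block, RLE factors or DESeq2, and 6 rose with no factors.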

How the data were processed

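Single-cell RNA sequencing of 4 pig libraries was analysed, 2 of PPDO and 2 of primary pancreas, grouped by their titles. The authors sorted live cells, built 10x 3′ v3.1 libraries and counted UMIs with Cell Ranger (7.1.0 per the file headers) on an in-house pig annotation. The submitters' processing notes name Sscrofa11.1. What the authors deposited are UMI counts for each feature and barcode, not normalized and without the correction for free RNA (SoupX) that the study applied later. The other deposited tables hold names of barcodes and features, a unit recorded as other.

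Features of a gene were summed. Cells were kept by the limits of the study (mitochondrial share up to 3% in PPDO and under 8% in primary pancreas, at most 9000 features, at least 1000 in both PPDO libraries, the stricter of the limits used for the 2 lines, over 400 and 800 in the primary libraries, and over 3000 UMIs in primary pancreas 2), and scores over 0.25 and 0.15 from Scrublet took out 84 and 141 primary doublets, and none were taken out of PPDO. Primary replicates 1 and 2 were assumed to be the first and second pancreas in the methods. Cells were clustered with Scanpy 1.11.5 and leidenalg 0.10.2 (2000 variable genes without RBPJL, 20 components, 15 neighbours, resolution 0.5), and clusters were named by at least 3 markers of a list. Such a cluster still stayed unnamed if it was shallow with no marker of that list among its leading genes. It also stayed unnamed if its leading genes held more markers of another list. Levels are CPM of summed cells with exact Poisson intervals, and shares carry exact Clopper-Pearson intervals at 95%. Both cover counting error only.

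Sums per library were tested with edgeR 4.0.16 (TMM, filterByExpr, glmQLFit, glmQLFTest, Benjamini-Hochberg at 0.05 over all genes, two-sided). SE is the absolute log2 fold change over the root of F. On simulated data at a fold of 8 and a dispersion of 0.1, 94.5% of 200 changed genes were recovered for the ductal-like and 67.7% of 189 for the acinar-like comparison, with 4 and 6 false calls among 23713 and 20170 genes. Alternatives were RLE factors, DESeq2 1.42.0, no count filter, a replicate block, each library left out, resolution 1.0, doublets kept, no factors, and clusters 10 and 22 joined to the acinar-like class, the last 2 chosen after seeing the data, as were TMM-scaled levels, the shares at other class settings and levels without the cell richest in RBPJL.

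RBPJL, the gene lists and the identifier beside it were chosen with earlier results of these data known. Named genes were the measured genes of the lists, the 3 named genes nearest on each side of RBPJL, the 6 genes most like it, and the 3 leading genes of each organoid cluster. Some genes of the lists enter the counts only and are not reported singly here.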

Additional observations from a re-analysis of the deposited data

How the results depend on the processing

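The counts of genes past the threshold were 10268 (PPDO against ductal-like) and 5088 (PPDO against acinar-like cells). Without 1 library they ranged from 4835 to 10736 and from 2847 to 4836. The lowest were those lacking the second organoid library, and lacking the first gave 5252 and 2956, with fewer genes tested in each case. On library totals with no factors 10219 (3290 higher, 6929 lower) and 11470 (10289 higher, 1181 lower) passed, and the acinar-like split was 2314 higher to 2395 lower with RLE factors, 2893 to 3836 with DESeq2 and 2909 to 2179 with TMM. The median of all genes in that comparison was 0.92 on the log2 scale with TMM, 0.74 with RLE factors, 0.09 with DESeq2 and 2.54 with no factors. With clusters 10 and 22 joined, 8078 genes passed. The replicate numbers only share a name between groups, since lines and animals differ. Deviations of same-numbered libraries correlated at −0.01 over 23514 genes and at −0.0037 over 20991 genes, and with the replicate number as a block 8316 and 5047 genes passed.

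The RBPJL level (27.3 CPM in PPDO, 375 in acinar-like and 81.2 in ductal-like cells) was 0.740, 279 and 3.28 CPM with the base feature only. In acinar-like cells it was 672 CPM at resolution 1.0, 594 CPM with doublets kept, 477 CPM with marker genes out of the totals, 843 CPM with the clusters joined and 657 CPM scaled by TMM factors. TMM factors gave 69.8 CPM in ductal-like cells, and 32.1 (ductal fit) and 15.6 CPM (acinar fit) in PPDO. With all barcodes PPDO had 25.7 CPM. Without 1 library the levels ranged from 24.7 to 29.99, 355 to 395 and 78.7 to 83.6 CPM. The thinned shares of cells (8.32%, 45.9% and 20.02%) were 2.77%, 28.1% and 8.08% at 1000 UMIs, 53.0%, 76.3% and 69.0% without thinning, and 0.184%, 35.0% and 0.750% for the base feature. The acinar-like share was 62.9% at resolution 1.0, 55.4% with doublets kept and 71.9% with the clusters joined. Without 1 library the shares ranged from 7.63% to 9.02%, 45.4% to 46.4% and 19.5% to 20.6%.

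Over 103 gene and comparison pairs 1038 alternative values kept direction and call, 47 lost and 35 gained a call with the direction kept, and 43 turned direction. The 43 include values whose call changed as well. The cause of these changes was not tested. On the log2 scale and against acinar-like cells, with the clusters joined DTX1, HEY2, TRHDE, PDX1 and SYS1 were −4.49, −3.32, −3.74, −0.26 and 0.23. Of these DTX1, HEY2 and TRHDE passed (FDR = 0.00675, 0.0214 and 0.00769). With no factors EPCAM, ZBTB20, KRT18, ONECUT2 and SYS1 were 0.94, 0.29, 0.67, 1.11 and 1.05, and EPCAM passed (FDR = 0.0150). At resolution 1.0 HEY2, TRHDE and SYS1 were −1.95, −2.68 and 0.24, and with doublets kept DTX1, HEY2, TRHDE and ONECUT2 were −3.11, −1.94, −2.67 and 0.56. RLE factors gave CDH1 −0.0096 and PDX1 −0.18, DESeq2 −0.0079 and −0.21, and the block PDX1 −0.041. Against ductal-like cells with no factors RBPJ, DBNDD2, DNASE1 and KRT8 were −0.014, −0.38, −0.11 and −0.082.

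Without 1 library, values against acinar-like cells ranged from −0.28 to 0.24 (CDH1), −0.26 to 1.14 (HES4), −5.13 to 8.04 (HEY1), −1.40 to 10.18 (ONECUT2), −0.96 to 1.56 (PDX1), −0.056 to 0.76 (TCF12) and −0.10 to 1.71 (TCF3). Against ductal-like cells they ranged from −1.42 to 0.72 (HES1), −0.21 to 0.31 (DBNDD2), −0.41 to 2.46 (FOXA1), −0.038 to 0.65 (KRT8) and −1.16 to 0.21 (ONECUT2). Acinar-like sums rest on 164 cells, so genes of low level were not measurable there, and primary classes were not remade without the upper limit on features.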
